A study of Mus musculus with 7 samples.

Results

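Complement genes were followed in brain RNA of mice of 24 months that carry the V1S and SV2 constructs, which the labels join to the fluorescent protein Venus. The 9 genes were taken by name from a table of 48526 Ensembl genes, as complement components, regulators and receptors. The rule used no measured value, but the list was drawn up with earlier results of these data known. They are C1qa, C1qb, C1qc, C4b, C3, Serping1, Cd59a, C3ar1 and C5ar1. The labels call 4 libraries on, with the treatment glucose, and 3 off, with Dox as treatment. Both groups carry both constructs at the same age. Construct state and Dox therefore change together and cannot be told apart. The series title concerns presynaptic α-synuclein oligomers. The promoter behind the constructs, the brain region and whether each library is a separate animal do not appear in the labels, and a p-value here reflects library-to-library spread alone, which may be technical. Levels are in log2 units of the regularized logarithm (rlog), in which a gene's deviations from its mean are shrunken, most at low counts. Depth per library is unknown.

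Complement is a cascade of proteins that tags cells, debris and, in brain, synapses. C1q opens the classical pathway by recognising a target, C4 and C3 are then cleaved and deposited on it, and cells that carry receptors for the fragments respond or engulf it. In brain, microglia are the main source of C1q, astrocytes and other glia make C4 and C3, and membrane-bound and soluble regulators restrain each step.

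All 9 genes had a mean value of at least 3, the minimum for testing, and 17896 genes of the table did. None of the 9 passed an adjusted p of 0.05 in limma's test of on minus off, against 2.6% of all genes tested. At an unadjusted p under 0.05, limma gave 2 of the 9, C1qb and Cd59a, against 20.7% of all genes tested. The median difference of the 9 was -0.02, and that of all genes tested was 0.003. On and off values failed to overlap in 1 of the 9, C5ar1, against 15.2% of all genes tested (7.13% with higher values in on, as for C5ar1).

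**Figure D1:**
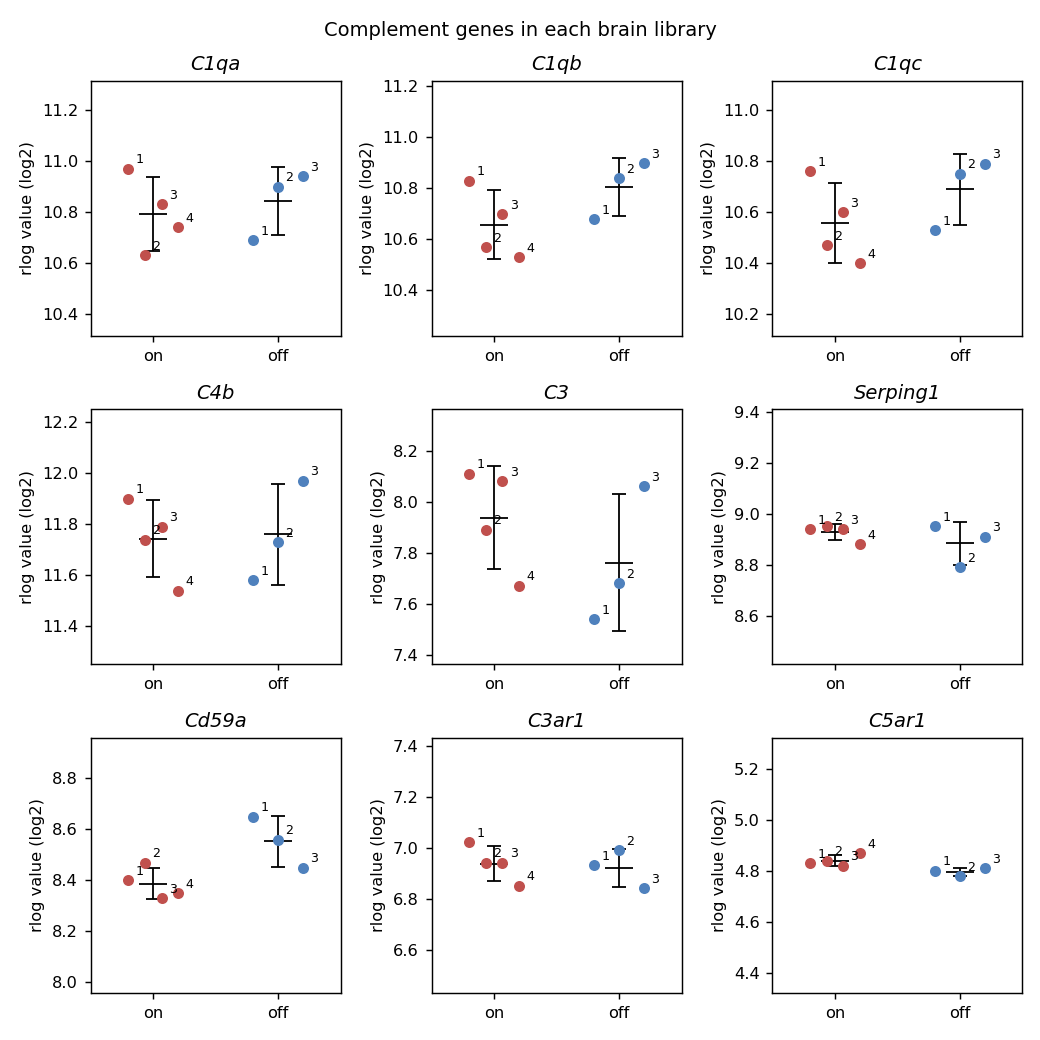
Value of each complement gene in every library (points, with the replicate number beside them; y axis, rlog value on the log2 scale, 1 unit high in every panel), on libraries left and off libraries right, with the group mean and SD as black bars. The C1q chains, C4b and C3 spread widely within both groups, while Serping1, C3ar1 and C5ar1 lie close together.

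The 3 chains of C1q assemble into a single recognition molecule, and their genes lie side by side within 18.7 kb on the minus strand of chromosome 4 (GRCm38, GENCODE M21), with C1qb at 136880129 to 136886187, C1qc at 136889804 to 136893065 and C1qa at 136895917 to 136898803. C1qa had 10.97, 10.63, 10.83 and 10.74 in on replicates 1 to 4, against 10.69, 10.90 and 10.94 in off replicates 1 to 3. The groups overlapped, with the highest and the lowest of the 7 values both in on libraries. C1qb had 10.83, 10.57, 10.70 and 10.53 in on and 10.68, 10.84 and 10.90 in off. Here on replicate 1 lay just below off replicate 2, and off replicate 1 lay among the other on values. C1qc had 10.76, 10.47, 10.60 and 10.40 in on and 10.53, 10.75 and 10.79 in off, in the same order of libraries as C1qb except that on replicate 1 stood just above off replicate 2. Means for C1qb were 10.66 ± 0.14 in on (SD, n = 4) and 10.81 ± 0.11 in off (SD, n = 3).

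None of the chains was called. C1qa differed by -0.05 (95% interval -0.21 to 0.10, limma adjusted p = 0.72), C1qb by -0.15 (-0.30 to 0.00, adjusted p = 0.23) and C1qc by -0.13 (-0.30 to 0.03, adjusted p = 0.342). On replicate 1 bore on this. Without it, C1qb differed by -0.21 (limma adjusted p = 0.0194) and C1qc by -0.20 (adjusted p = 0.0336), both past the threshold, and C1qa by -0.11 (adjusted p = 0.225), while 16.3% of all genes tested were called in those 6 libraries. Over the whole table that library lay beside the off libraries, with a score of -4.10 on principal component 1, where the other on libraries scored 7.19 to 9.15 and the off libraries -8.64 to -3.56.

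Composition of the transcripts moved with the C1q values. The longest transcripts of the chains have a GC content of 57.4% to 59.5%, and deviations of all tested genes from their means went with GC content at a Spearman's rho, across genes, of 0.18, -0.456, -0.139 and -0.297 in on replicates 1 to 4 and of -0.113, 0.233 and 0.578 in off replicates 1 to 3. These transcripts are also short, at 1040 to 1203 bases, against a median of 3158 over all genes tested. With transcript length, rho was -0.059, 0.291, 0.287 and 0.274 in on replicates 1 to 4. In off replicates 1 to 3 it was -0.316, -0.233 and -0.246, so for length the groups did not overlap. After each library's smooth trend with GC content and transcript length was taken out, the differences were 0.10 for C1qa (95% interval 0.00 to 0.20, limma adjusted p = 0.278), -0.01 for C1qb (-0.11 to 0.09) and 0.00 for C1qc (-0.12 to 0.12). In that fit limma called 0 of the 9 genes, against 0.659% of all genes tested, with C1qa and Cd59a at an unadjusted p under 0.05, against 16.8%. The sign of C1qa was thus turned, and the range of C1qb over the 7 libraries went down to 0.19 after the correction, against 0.37 before it. With on replicate 1 also left out, C1qb was at -0.034 (limma adjusted p = 0.682) and C1qc at -0.036 (adjusted p = 0.709), so neither was called there. Whether the trend is technical was not tested.

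Markers of microglia were set beside C1q. All 8 listed markers were tested, none was listed at 0, and 0 were called by limma, with 3 at an unadjusted p under 0.05, against 20.7% of all genes tested. Trem2 differed by -0.23, while Csf1r differed by -0.01 and P2ry12 by 0.00. The mean level of the 8 was 9.73 to 9.94 in on libraries and 9.86 to 10.01 in off libraries, with a median difference of -0.11, which the GC and length correction left at -0.07. Fewer microglia and less RNA per microglial cell cannot be told apart in tissue RNA, and the part of this list in the C1q values was not tested.

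Promoter windows were shown for the chains found in the RefSeq table (GRCm38.p6), since C1qb and C1qc followed each other more closely than any other pair of the 9 genes, with a Pearson r of 0.99 over the 7 libraries and 0.97 after the GC and length correction. Each window spans the RefSeq start of its gene, which differs from the GENCODE start given above, 5′ to 3′ on the minus strand, at chr4:136886151-136886450 for C1qb and chr4:136892865-136893164 for C1qc. Capitals mark the letters GAGGAA or their reverse complement, a core of the site bound by the myeloid factor PU.1.
C1qb: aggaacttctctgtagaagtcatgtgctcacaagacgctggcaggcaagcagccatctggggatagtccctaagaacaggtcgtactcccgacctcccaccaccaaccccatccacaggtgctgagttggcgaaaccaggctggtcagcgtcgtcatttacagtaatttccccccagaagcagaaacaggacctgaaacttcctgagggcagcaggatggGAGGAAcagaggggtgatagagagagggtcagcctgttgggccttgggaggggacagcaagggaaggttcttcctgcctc
C1qc: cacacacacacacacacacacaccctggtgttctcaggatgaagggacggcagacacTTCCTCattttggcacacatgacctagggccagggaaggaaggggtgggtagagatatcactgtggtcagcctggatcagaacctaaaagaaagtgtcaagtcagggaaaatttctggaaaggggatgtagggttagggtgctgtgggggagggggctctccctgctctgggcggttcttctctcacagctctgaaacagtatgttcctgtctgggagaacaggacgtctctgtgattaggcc
Counted from the RefSeq start, the match in C1qb lies at -30 to -25, and that in C1qc, on the other strand, at -193 to -188. Counted from the GENCODE start, they lie at -43 to -38 and at -42 to -37. Of 32851 promoter windows of the same length, 28.3% hold these letters on either strand. Of the 6 members with a window (C1qb, C1qc, C3, Cd59a, C3ar1 and C5ar1), 3 hold them, the third being Cd59a. The interferon-stimulated response element was found on either strand in Cd59a alone of the 6, and in 3.4% of all windows. TTCNNNGAA, a form of the STAT site that reads the same on both strands, was in none of the 6 and in 8.3% of all windows. No overlap between motifs was found in these 6 windows. C1qa, C4b and Serping1 had no entry.

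C4b encodes the classical-pathway C4, and C3 encodes the component on which all pathways converge. C4b (chromosome 17, 34728380 to 34743882, minus strand) had 11.90, 11.74, 11.79 and 11.54 in on replicates 1 to 4 and 11.58, 11.73 and 11.97 in off replicates 1 to 3. The off libraries held the highest value and the on libraries the lowest, so the groups overlapped over nearly the whole range. The means were 11.74 ± 0.15 in on (SD, n = 4) and 11.76 ± 0.20 in off (SD, n = 3), a difference of -0.02 (95% interval -0.20 to 0.16, limma adjusted p = 0.933). C3 (chromosome 17, 57203970 to 57228136, minus strand) had 8.11, 7.89, 8.08 and 7.67 in on and 7.54, 7.68 and 8.06 in off. On replicate 4 was the low on library and off replicate 3 the high off library for both genes. C3 had the widest range of the 9, 0.56, and the widest interval, with a difference of 0.17 (-0.07 to 0.42, adjusted p = 0.419). Leaving out single libraries moved that difference between 0.066, without off replicate 1, and 0.32, without off replicate 3, and in neither case was it called.

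C4b is read beside a close copy. Of the stretches of 50 bases in its longest transcript, 35.2% also occur in transcripts of C4a, its neighbour, so counting, whose settings no label states, could divide reads between these genes, and both values are uncertain. C4a, with a mean of 3.80 per length (rlog value minus log2 of the transcript length in kb) against 9.32 for C4b, differed by 0.07 ± 0.07 (SE, limma adjusted p = 0.578).

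**Figure D2:**
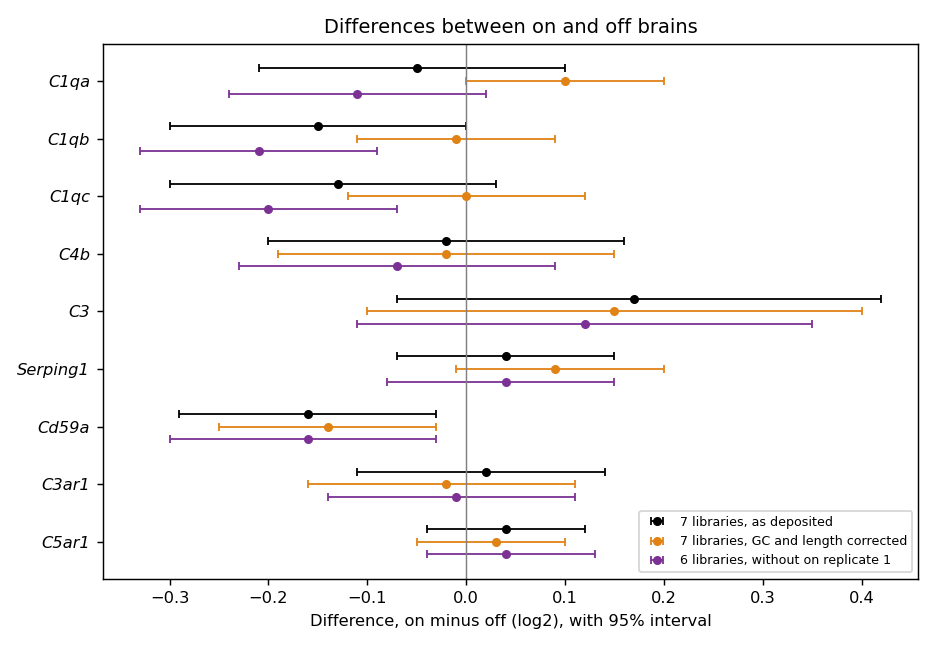
Difference of on minus off for each complement gene (x axis, log2, with 95% intervals) as deposited, after correction for GC content and transcript length, and without on replicate 1. Intervals of C1qb and C1qc lie below 0 without on replicate 1 and around 0 after the correction, and that of Cd59a lies below 0 in all 3 fits.

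Regulators limit the cascade at its ends. Serping1 encodes the C1 inhibitor, which blocks the proteases bound to C1q. It lies on chromosome 2 (84765387 to 84775444, minus strand) and had 8.94, 8.95, 8.94 and 8.88 in on and 8.95, 8.79 and 8.91 in off. Apart from off replicate 2, the values lay within 0.1 of each other. Its difference was 0.04 (95% interval -0.07 to 0.15, limma adjusted p = 0.684).

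Cd59a encodes a membrane-anchored protein that stops assembly of the membrane attack complex. It lies on chromosome 2 (104095801 to 104115354, plus strand) and had 8.40, 8.47, 8.33 and 8.35 in on, against 8.65, 8.56 and 8.45 in off. The groups overlapped only in that on replicate 2 lay just above off replicate 3. The means were 8.39 ± 0.06 in on (SD, n = 4) and 8.55 ± 0.10 in off (SD, n = 3). Its difference of -0.16 (95% interval -0.29 to -0.03) had an unadjusted p of 0.017 and a limma adjusted p of 0.15, so it was not called. The direction held in all 18 alternatives, with a range of -0.21 to -0.11. All of them reuse these libraries, and the threshold of 0.1 repeats the same fit, so the count is not independent support. Limma's adjusted p lay between 0.0497 and 0.482, the lowest with array weights, the only alternative in which Cd59a was called. After the GC and length correction the difference was -0.14 (-0.25 to -0.03) and the groups no longer overlapped, against 13.8% of all genes tested after that correction. Its neighbour and close relative Cd59b had a mean of 4.91 and differed by -0.02 ± 0.04 (SE, limma adjusted p = 0.869), and 4.0% of the 50-base stretches of Cd59a occur in Cd59b, so both values are uncertain.

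Receptors for the cleaved fragments are carried in brain mainly by microglia. C3ar1, the receptor for C3a (chromosome 6, 122847138 to 122856161, minus strand), had 7.02, 6.94, 6.94 and 6.85 in on and 6.93, 6.99 and 6.84 in off. The groups covered nearly the same range. Its difference was 0.02 (95% interval -0.11 to 0.14, limma adjusted p = 0.913). C5ar1, the receptor for C5a (chromosome 7, 16246743 to 16259540, minus strand), had 4.83, 4.84, 4.82 and 4.87 in on and 4.80, 4.78 and 4.81 in off. Every on value lay above every off value, by as little as the last digit shown. The difference was 0.04 (-0.04 to 0.12, adjusted p = 0.568), at the lowest rlog value of the 9, where the shrinkage of the scale is strongest.

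**Figure D3:**
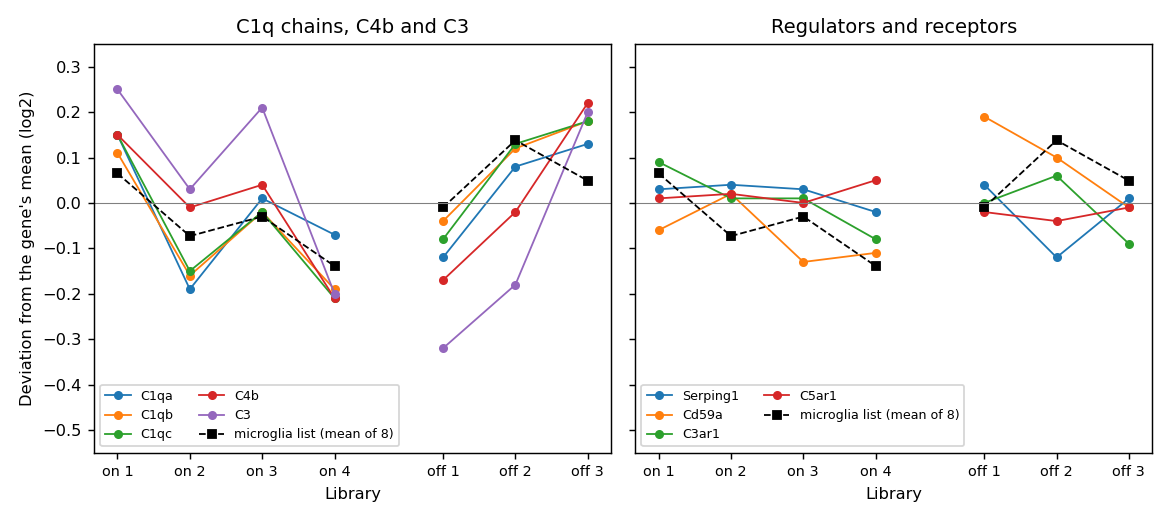
Deviation of each gene from its own mean (y axis, log2) in every library (x axis), C1q chains, C4b and C3 left, regulators and receptors right, with the mean of the 8 microglia markers as black squares. Lines only join the points of a gene. All 5 genes on the left are above their mean in on replicate 1 and off replicate 3 and below it in on replicate 4 and off replicate 1.

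Variation between libraries was shared by the C1q chains, C4b and C3 and crossed the groups. Among the 10 pairs of these 5 genes, Pearson's r over 7 libraries ran from 0.42 to 0.99, and with the group means removed from 0.71 to 0.99. The other 26 pairs of members ran from -0.69 to 0.36, and with the group means removed from -0.83 to 0.50. The 5 genes were set apart with these values in view, so the contrast with the other 26 pairs follows from that choice and is not independent support. These values describe 7 libraries with trends in composition and of unknown depth. After the GC and length correction the 10 pairs ran from 0.48 to 0.97 and the other 26 from -0.88 to 0.38. Both lowest values were of C1qa, 0.48 with C4b and -0.88 with Cd59a. C4b and C3 had an r of 0.87, and 0.98 with the group means removed.

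Spread within groups was wide for the same 5 genes. The pooled within-group SD was 0.14 for C1qa, 0.13 for C1qb, 0.15 for C1qc, 0.17 for C4b and 0.23 for C3. Among genes within 0.5 of their mean value, 98.6%, 97.9%, 98.8%, 99.4% and 98.9% had a smaller SD. The median SD of such genes was 0.05 to 0.08. After the GC and length correction C4b and C3 kept their place, at 99.2% and 98.9%, while C1qa, C1qb and C1qc stood at 87.3%, 85.8% and 93.6%. Serping1, Cd59a and C3ar1 lay in the middle of their likes (34%, 62.2% and 45.6%), and C5ar1 near the bottom (1.4%).

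**Figure D4:**
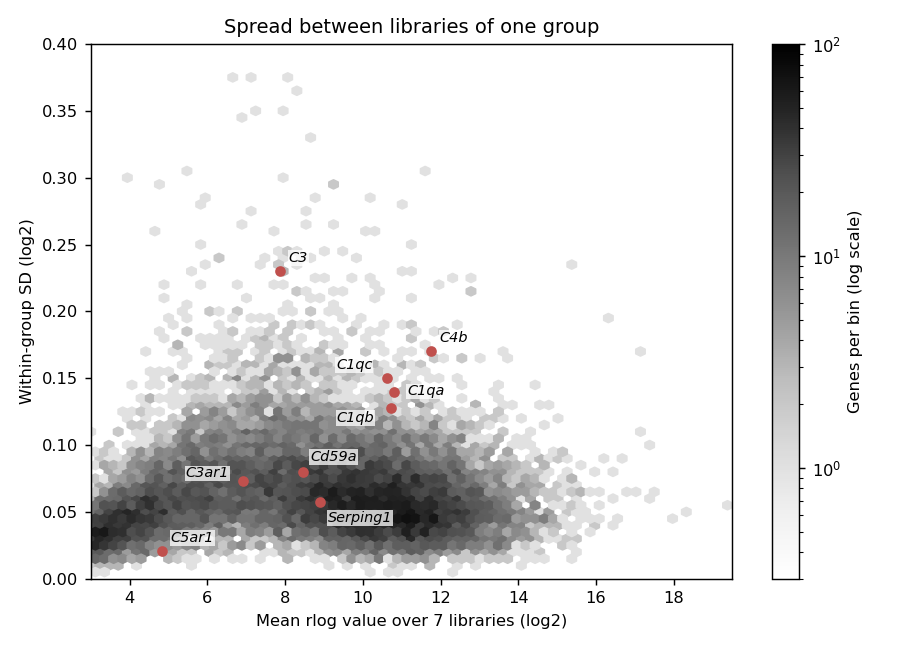
Pooled within-group SD (y axis, log2) against the mean rlog value (x axis, log2) for all genes tested (grey bins, shade on a log scale), with the 9 complement genes in red. C3, C4b and the C1q chains lie above most genes of like level. The 7 genes with an SD over 0.4 are outside the axis.

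Levels of the 9 genes were set in order after division by transcript length, as the rlog value minus log2 of the longest transcript in kb. On this per-length scale C1qa was highest at 10.76 ± 0.13 (SD over 7 libraries), then C1qb at 10.60 ± 0.14 and C1qc at 10.35 ± 0.15. The ranges of neighbouring chains overlapped across libraries, though within each of the 7 libraries C1qa was above C1qb and C1qb above C1qc. C4b followed at 9.32 ± 0.16, Serping1 at 8.09 ± 0.06 and Cd59a at 7.60 ± 0.11. At the lower end stood C3 at 5.5 ± 0.23, C3ar1 at 4.82 ± 0.07 and C5ar1 at 3.48 ± 0.03. No ranges of neighbours overlapped from C1qc downward.

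The genes whose values ran most like the mean of the C1q chains over the 7 libraries, among 15014 other named genes, were Cdc42ep1 (Pearson r = 0.990), Rai2 (0.987), tapasin gene Tapbp (0.986), glutamate receptor gene Grm3 (0.984) and gelsolin gene Gsn (0.984). With only 7 libraries such values are common, since 245 genes had an r over 0.9, and after the GC and length correction these 5 had 0.774 to 0.830. For C4b they were Vav1, a signalling protein of blood cells (0.976), Ccn5 (0.970), Slamf9 (0.964), Scly (0.961) and Rab32 (0.959), out of 48 genes over 0.9, with 0.910 to 0.977 after the correction. None of the 10 was called between on and off. Among the cell type markers, those closest to the C1q mean were Cx3cr1 of microglia (r = 0.94), Cnp of oligodendrocytes (0.93) and Aif1 of microglia (0.91). Those closest to C4b were Gfap of astrocytes (0.93), Mag of oligodendrocytes (0.93) and the reactive astrocyte gene Serpina3n (0.91). The lists did not run together: r with the C1q mean was -0.29 for P2ry12 of microglia, and r with C4b was -0.33 for Slc1a3 and -0.30 for Gja1 of astrocytes and -0.53 for Lcn2 of the reactive astrocyte genes. Serpina3n had 10.52, 10.40, 10.33 and 10.19 in on and 10.33, 10.40 and 10.66 in off, with the same library at the top of each group as C4b.

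Other marker lists gave no calls by limma. The 11 reactive astrocyte genes had a mean level of 7.75 to 7.86 in on and 7.74 to 7.82 in off, with 2 at an unadjusted p under 0.05, Osmr and Ggta1, a share below the 20.7% of all genes tested. The 7 general astrocyte markers had 13.81 to 13.94 in on and 13.83 to 13.88 in off. Of 6 markers of infiltrating myeloid cells, 4 were high enough to test and Ly6c2 and Plac8 were not. Of those 4, Ccr2 (0.09) and S100a8 (0.23) had an unadjusted p under 0.05, S100a9 (0.17) and Chil3 (0.02) did not, and the median difference was 0.13. After the GC and length correction neither Ccr2 (0.04) nor S100a8 (0.22) had an unadjusted p under 0.05. The mean of the 4 was 4.67 to 4.91 in on and 4.49 to 4.84 in off. Haemoglobin and other blood genes had a mean of 4.96 to 5.40 in on and 5.03 to 5.40 in off. Endothelial and mural markers spanned 9.60 to 9.96 in on and 9.61 to 9.84 in off, fibroblast markers 9.03 to 9.16 in on and 8.98 to 9.03 in off, and choroid plexus markers 9.85 to 10.11 in on and 9.95 to 9.99 in off. Neuronal markers at 14.41 to 14.48 in on and 14.45 to 14.54 in off, and oligodendrocyte markers at 14.20 to 14.45 in on and 14.28 to 14.46 in off, fit the labelled tissue.

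Of 55 other genes of the pathway, 39 were tested, and limma called 1 higher and 1 lower in on, against 0.816% and 1.79% of all genes tested. The other 37 did not pass. Their median difference was 0.03. Csmd1, a large neuronal membrane protein with complement-regulating domains, was higher in on, with 11.31, 11.39, 11.44 and 11.52 in on and 11.11, 11.19 and 11.26 in off. The groups did not overlap, and the difference was 0.23 ± 0.05 (SE, limma adjusted p = 0.0345). After the GC and length correction it was 0.10 ± 0.04 (SE, adjusted p = 0.231), on a transcript of 14182 bases, and it missed the threshold when any library but on replicate 1 was left out (adjusted p up to 0.153). Nptx2, a neuronal pentraxin of excitatory synapses that can bind C1q, was lower in on, with 9.97, 9.99, 10.06 and 9.94 in on and 10.11, 10.32 and 10.25 in off. These values did not overlap either, at a difference of -0.24 ± 0.05 (SE, adjusted p = 0.0322). The difference was -0.17 ± 0.05 (SE, adjusted p = 0.104) after the correction, and it missed the threshold without any of on replicates 2, 3 and 4 or off replicates 2 and 3 (adjusted p up to 0.198).

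None of the early proteases and entry proteins of the cascade was called. In the classical pathway 4 of 6 genes were tested. C1s1, the C1s protease gene, differed by 0.13 ± 0.05 (SE, limma adjusted p = 0.169) and C1ra, the C1r protease gene, by 0.10 ± 0.06 (adjusted p = 0.328). Of 8 lectin-pathway genes 4 were tested, among them Fcna (-0.07 ± 0.03, adjusted p = 0.219) and Masp1, a protease of that pathway (0.07 ± 0.05, adjusted p = 0.52), and Mbl1 was listed at 0 in every library. Of the alternative pathway only properdin, Cfp, reached the minimum, with 8.32, 8.73, 8.72 and 8.63 in on and 8.55, 8.35 and 8.50 in off. On replicate 1 was the lowest of all for Cfp. Its difference was 0.14 ± 0.09 (SE, adjusted p = 0.411), and 0.23 (adjusted p = 0.0161) without on replicate 1. Of 7 terminal components 3 were tested and none called, C8g differing by -0.04 ± 0.04 (adjusted p = 0.62), while C6, C8a, C8b and C9 stood under the minimum.

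Among 18 regulators 15 were tested, with 11 positive differences, against 9223 of all 17896 genes tested, and 1 call, Csmd1, against 2.6%. Clusterin, Clu, a secreted inhibitor of the terminal complex made by astrocytes, had the highest level per length of the pathway genes measured, 13.61, and differed by -0.07 ± 0.05 (SE, limma adjusted p = 0.424). Of 9 receptors 8 were tested and none called. Cd93, an endothelial and myeloid membrane protein once described as a C1q receptor, had the largest difference of the receptors, with 7.78, 8.2, 8.23 and 8.15 in on and 7.74, 7.69 and 7.92 in off. On replicate 1 lay among the off values. The difference was 0.31 ± 0.09 (SE, adjusted p = 0.0966), and 0.41 (adjusted p = 0.000705) without that library. Lrp1, a large endocytic receptor, differed by 0.13 ± 0.05 (SE, adjusted p = 0.135). The pentraxin receptor gene Nptxr differed by -0.01 ± 0.05 (SE, adjusted p = 0.94).

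**Figure D5:**
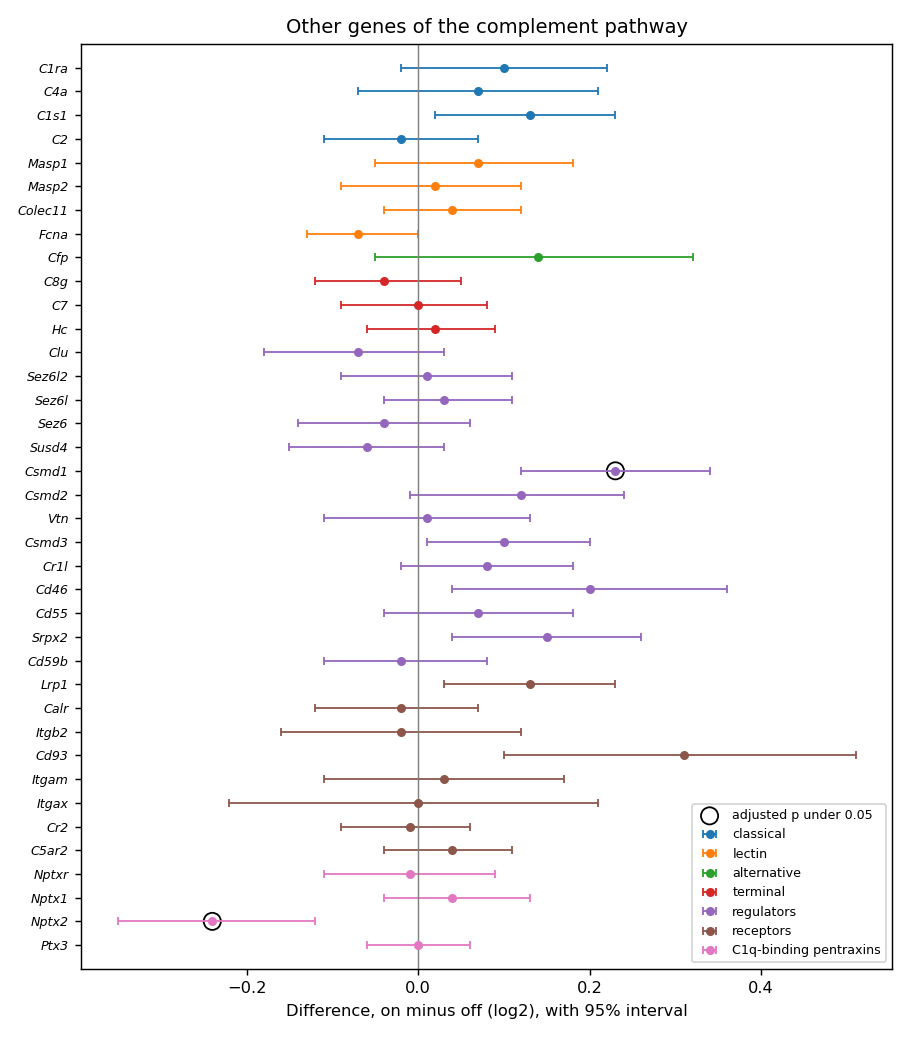
Difference of on minus off (x axis, log2, with 95% intervals) for other complement genes tested, by class and, within a class, by mean level from top to bottom. Csmd1 (0.23) and Nptx2 (-0.24) are circled as the genes with an adjusted p under 0.05.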

How the data were processed

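Brain RNA of 7 libraries, 4 on and 3 off, was measured by sequencing of poly(A)-selected stranded libraries (TruSeq), per the labels. The authors deposited rlog values in log2 units. The submitters' processing notes name DESeq2 1.16.1, Subread 1.5.3, STAR 2.5.2, BWA 0.7.14-r1136, cutadapt 1.9.1 and GRCm38, without roles. No source used here states the annotation, strand setting or filters. Rlog shrinkage understates differences of low genes, and depth per library is unknown.

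Genes with a mean value of at least 3 (17896) were tested two-sided (limma 3.58.1, R 4.3.3). The model held group alone and let the variance follow mean level, and p-values were adjusted over all of these genes by Benjamini-Hochberg. The GC and length correction removed from each library a smooth trend (mgcv 1.9.3, for 3 classes of mean value), using the longest GENCODE M21 transcript, for 17831 genes (99.6%), and left the others as deposited. GENCODE gave symbols for 48144 genes. Methods were tested on simulated data. Other alternatives were no filter, a minimum of 5, median centring, quantile normalization, no intensity trend, array weights, a threshold of 0.1, the replicate number as a block, and each library left out.

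Members and lists were chosen with earlier results of these data known. Named besides the 9 members were called pathway genes, in each class the gene with the smallest p and that with the highest level, the paralogs C4a and Cd59b, the 5 genes most like the C1q mean and C4b, and cell type markers. No 2 libraries held identical values. The values of 1 listed pathway gene, which is part of the counts, are not reported here.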

Additional observations from a re-analysis of the deposited data

Results flagged for a closer look

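A gap test of the 4 on libraries was run over 58 values (the 9 members, the 39 other complement genes tested and 10 marker lists), and 8 had 1 library set apart. Chance gives about 2.9 such gaps. The 58 values come from the same 4 libraries, which share trends over the whole table, so no excess over chance can be read from the 8. None of the 9 members was among the 8. On replicate 1 lay apart in Clu (14.549, against 14.380 to 14.407 in the other on libraries), in Cd93 (7.78 against 8.152 to 8.225) and in the mean deviation of neuronal markers (0.027 against -0.043 to -0.036). On replicate 3 lay apart in Cd55 (8.074 against 8.023 to 8.030), in Cr2 (4.633 against 4.554 to 4.564) and in the mean deviation of fibroblast markers (0.126 against -0.011 to 0.005). On replicate 4 lay apart in Csmd2 (11.267 against 11.106 to 11.130) and in the mean deviation of reactive astrocyte genes (-0.06 against 0.037 to 0.049). Their causes were not tested.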

How the results depend on the processing

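Over 161 values of the 9 members under the alternatives, 142 kept their direction and side of the threshold, 3 newly passed and 16 changed sign, all of those 16 uncalled. The 3 were Cd59a with array weights (-0.18) and C1qb and C1qc without on replicate 1. Members called, 0, were 1 with array weights and 0 to 2 with a library left out. Members whose groups did not overlap, 1, were 2 after the GC and length correction and 1 to 2 with a library left out.

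After that correction C1qa was at 0.10, C3ar1 at -0.024, Clu at 0.022 and Nptxr at 0.031. With on replicate 1 also left out C1qa was at 0.082, C3ar1 at -0.057, Masp1 at -0.0097, Clu at 0.008 and Nptxr at 0.026. The correction with the replicate block gave C1qa 0.11, C1qb 0.017, C1qc 0.037, C4b 0.047, Clu 0.027 and Nptxr 0.030. C3ar1 was at -0.0086 with array weights, and C4b at 0.049 with the replicate block. With a library left out, differences ran from -0.13 to 0.0012 for C1qa, -0.11 to 0.087 for C4b, -0.0047 to 0.075 for Serping1, -0.025 to 0.051 for C3ar1, -0.040 to 0.045 for Nptxr and -0.042 to 0.00078 for Cd59b. The causes were not tested.

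Other complement genes called, 2, were 0 with no filter, without the intensity trend, with the replicate block, after the GC and length correction and after it with the block, 4 at a threshold of 0.1, 5 with array weights, 5 after the correction without on replicate 1, and 0 to 6 with a library left out. Genes called over the table, 466, were 7 with no filter, 237 without the intensity trend, 2215 with array weights, 1182 at a threshold of 0.1, 30 with the replicate block, 118 after the correction, 1813 after it without on replicate 1, 2 after it with the block, and 43 to 2917 with a library left out. Higher calls were 146 of 466, 1081 of 2215 with array weights and 994 of 1813 after the correction without on replicate 1. The labels do not say whether the replicate numbers pair the libraries. Deviations of same-numbered libraries had an r of -0.228, -0.100 and 0.018. Such values cannot decide the question, since trends over the whole table also differ between libraries, so no conclusion is drawn from the block.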

Other observations

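The difference of rlog values between C3 and C4b, not divided by length, was steadier within a group than either gene. C3 minus C4b was -3.79, -3.84, -3.71 and -3.88 in on replicates 1 to 4, and -4.03, -4.05 and -3.91 in off replicates 1 to 3, so the groups did not overlap. This gap was picked after its values were seen and was not tested. In rlog values not divided by length, which say nothing of which gene is higher, C1qa minus C1qb was 0.14, 0.06, 0.12 and 0.21 in on and 0.01, 0.06 and 0.04 in off, while C1qb minus C1qc was 0.07 to 0.13 in on and 0.09 to 0.15 in off.

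Itgax, an integrin subunit of complement receptor 4, had 5.40, 5.38, 5.5 and 5.15 in on and 5.15, 5.26 and 5.66 in off, with off replicate 3 highest, as for C4b, and a difference of 0.00 ± 0.10 (SE, limma adjusted p = 0.997). Itgam, a subunit of complement receptor 3, had 7.89, 7.87, 7.79 and 7.76 in on and 7.74, 7.95 and 7.70 in off, with off replicate 3 lowest. Both genes were chosen after their values were seen.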
